A study of Mus musculus with 22 samples.

Results

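The replication-dependent histone genes of mouse dermal fibroblasts were examined for regions bound by lamin A/C, BRG1, CHD4 and Lap2alpha. Members were taken by symbol from the RefSeq genes of GRCm38: every protein-coding gene named H1f, H2ac, H2bc, H3c or H4c plus a number, or by the older Hist names. This gave 67 of 21887 protein-coding genes, of which 10 were H1, 17 H2A, 16 H2B, 12 H3 and 12 H4 genes. On chromosome 13 lay 53 of them, in an interval of 328 kb with 22 genes (chr13:21715711-22043658) and an interval of 404 kb with 31 genes (chr13:23531044-23934913), called here the first and second chromosome 13 clusters. A further 10 lay in 50.3 kb of chromosome 3 (chr3:96219885-96270192), and 4 lay alone: H1f0 and H1f7 on chromosome 15 and H1f8 and H1f10 on chromosome 6. The rule found none on chromosome 11.

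The libraries are chromatin immunoprecipitations with sequencing (ChIP-seq) from cells that were wildtype (WT) or lacked Lap2alpha (KO), labelled only as mouse dermal fibroblast. Lamin A/C was precipitated with antibody 3A6 or E1, BRG1 and CHD4 with 1 antibody each, all in both genotypes, and Lap2alpha with 1H11 in WT cells. Chromatin from doubly crosslinked cells was sonicated for 16 or 20 cycles. Each combination was 1 library, so there are 8 matched WT and KO pairs, no biological replicates, and no statistical test. Differences between the 16-cycle and 20-cycle pairs combine shearing with every other difference between libraries, and these cannot be told apart. Whether the cells are 1 clone or a pool is not given in the sources used here.

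Replication-dependent histone genes make the bulk of the histones that package newly copied DNA, and they are transcribed in S phase. They are short, lack introns, and their messenger RNAs end in a conserved stem-loop that the protein SLBP binds in place of a poly(A) tail. Their genes are clustered, and the coactivator NPAT gathers at them in nuclear histone locus bodies. Lamin A/C forms filaments at the nuclear edge and also occurs in the nuclear interior, where Lap2alpha binds it. BRG1 is the ATPase of SWI/SNF remodelling complexes, and CHD4 is an ATPase of the NuRD remodelling and deacetylase complex.

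Not every gene taken by symbol is replication-dependent. H1f6, H1f7, H2ac1 and H2bc1 are known as testis genes and H1f8 as the oocyte linker histone, while H1f0 and H1f10 encode replacement linker histones. The remaining 60 are the cluster genes that fit the name. The lists hold no expression values, so the cell type was looked at through BRG1 alone: 12 of 13 dermal fibroblast marker genes and 6 of 14 marker genes of other skin cells had a BRG1 region in all 4 BRG1 lists, as did 48.8% of all genes.

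The 200 bases before the start are shown for members on which the results below turn. H1f2, H2bc8 and H2bc3 were among the members most covered by Lap2alpha, H2ac20 was the H2A gene most covered by BRG1, and H4c6 had lamin A/C regions in KO cells. H1f6 and H2bc1, testis genes inside the second chromosome 13 cluster, had almost no regions. Capitals mark matches on either strand to TATAAA (the TATA box), CCAAT (the CCAAT box), ATTTGCAT (the octamer of H2B promoters), AAACACA (the H1 box) and CGGAC (the core that HINFP binds in H4 promoters). Sequences are from RefSeq on GRCm38.p6, each 5′ to 3′ on the strand of its gene.
H1f2: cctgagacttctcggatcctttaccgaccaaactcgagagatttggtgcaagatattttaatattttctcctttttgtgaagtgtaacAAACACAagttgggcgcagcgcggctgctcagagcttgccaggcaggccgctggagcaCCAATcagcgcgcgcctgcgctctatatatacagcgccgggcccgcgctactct
H2bc8: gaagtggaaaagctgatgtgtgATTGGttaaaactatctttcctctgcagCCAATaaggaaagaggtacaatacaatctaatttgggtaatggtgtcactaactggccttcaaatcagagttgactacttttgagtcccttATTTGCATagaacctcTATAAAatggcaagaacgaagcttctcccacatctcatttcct
H2bc3: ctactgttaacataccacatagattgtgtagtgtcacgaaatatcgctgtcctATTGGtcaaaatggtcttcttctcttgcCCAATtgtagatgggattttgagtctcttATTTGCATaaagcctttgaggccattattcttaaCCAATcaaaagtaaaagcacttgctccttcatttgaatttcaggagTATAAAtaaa
H2ac20: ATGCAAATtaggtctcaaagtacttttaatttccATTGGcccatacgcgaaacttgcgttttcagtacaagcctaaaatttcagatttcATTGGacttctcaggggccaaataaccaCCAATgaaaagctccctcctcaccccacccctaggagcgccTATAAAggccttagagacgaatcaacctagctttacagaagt
H4c6: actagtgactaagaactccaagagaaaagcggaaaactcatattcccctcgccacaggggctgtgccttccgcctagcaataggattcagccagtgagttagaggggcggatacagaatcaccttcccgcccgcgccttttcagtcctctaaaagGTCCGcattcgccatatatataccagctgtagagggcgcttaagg
H1f6: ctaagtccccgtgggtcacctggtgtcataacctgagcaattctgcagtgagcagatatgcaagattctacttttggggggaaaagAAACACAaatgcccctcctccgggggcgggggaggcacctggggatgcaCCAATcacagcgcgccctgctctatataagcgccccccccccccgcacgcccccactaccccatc
H2bc1: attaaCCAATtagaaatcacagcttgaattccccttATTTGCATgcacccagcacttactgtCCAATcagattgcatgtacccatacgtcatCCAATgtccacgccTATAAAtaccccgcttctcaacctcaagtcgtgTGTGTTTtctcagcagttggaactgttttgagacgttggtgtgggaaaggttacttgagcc
In order, these stretches are chr13:23738607-23738806 on the plus strand, chr13:23571200-23571399 plus, chr13:23746534-23746733 plus, chr3:96220881-96221080 minus, chr13:23551669-23551868 minus, chr13:23695611-23695810 plus and chr13:23934157-23934356 minus.

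Promoters of 300 bp, from 250 bases before to 50 after the start, were listed by RefSeq for 62 members (63 promoters) and for 17492 protein-coding genes (21263 promoters). H2bc4, H2bc21, H3c1, H3c7 and H4c14 had none listed. A CCAAT box stood in 52 of the 63, that is in every listed H2A, H2B and H3 promoter, 7 of 10 H1 and 3 of 11 H4 promoters, and in 38.2% of all promoters. All 11 H4 promoters held CGGAC, which 28.6% of all promoters held. The octamer was found in 7 of 15 H2B and 6 of 17 H2A promoters and in none of the H1, H3 and H4 promoters, against 1.66% of all promoters. H2A and H2B genes often lie head to head, so that a pair can share the same letters. TATAAA was in 34 of 63 member promoters (54.0%) against 12.6% of all, and AAACACA in 5 of 10 H1 promoters against 6.15% of all. The testis gene H2bc1 carried the octamer, a TATA box and 3 CCAAT boxes as H2bc3 did, at other distances from the start, so these letters were present at members with and without regions. A match is a description of letters and not a measured site.

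Coverage is the percent of a window, the gene body plus 1 kb on each side, that lay inside the regions the authors listed. Lists ranged from 7283 regions (KO CHD4, 20 cycles) to 233769 (KO lamin A/C, E1, 20 cycles), and read depth is unknown. The median member body was 496 bp against 17169 bp over all genes. A short window holds a region less often but gives it a larger percent, so members are also set against genes with bodies up to 1500 bp and against equal windows of 1 kb to each side of the start. Windows of 51 of the 67 members overlapped another member's, so neighbouring members share regions and are not independent. Histone genes are a multigene family, and how reads matching several copies were placed is not given in the sources used here.

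In WT cells the histone genes were covered by BRG1, CHD4 and Lap2alpha and almost free of lamin A/C. Mean member coverage by BRG1 was 23.5% at 16 cycles and 31.7% at 20 cycles, against 2.55% and 7.49% over all genes. For CHD4 it was 25.8% and 39.7%, against 1.13% and 5.57%. For Lap2alpha it was 19.8% and 13.3%, against 0.626% and 1.23%. Median Lap2alpha coverage was 19.4% and 12.5% over members, against 0.0% and 0.340% over all genes. Spread among members was wide, with an SD of 15.3 and 14.4 percentage points for Lap2alpha, and 18.01 and 21.5 for BRG1.

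**Figure D1:**
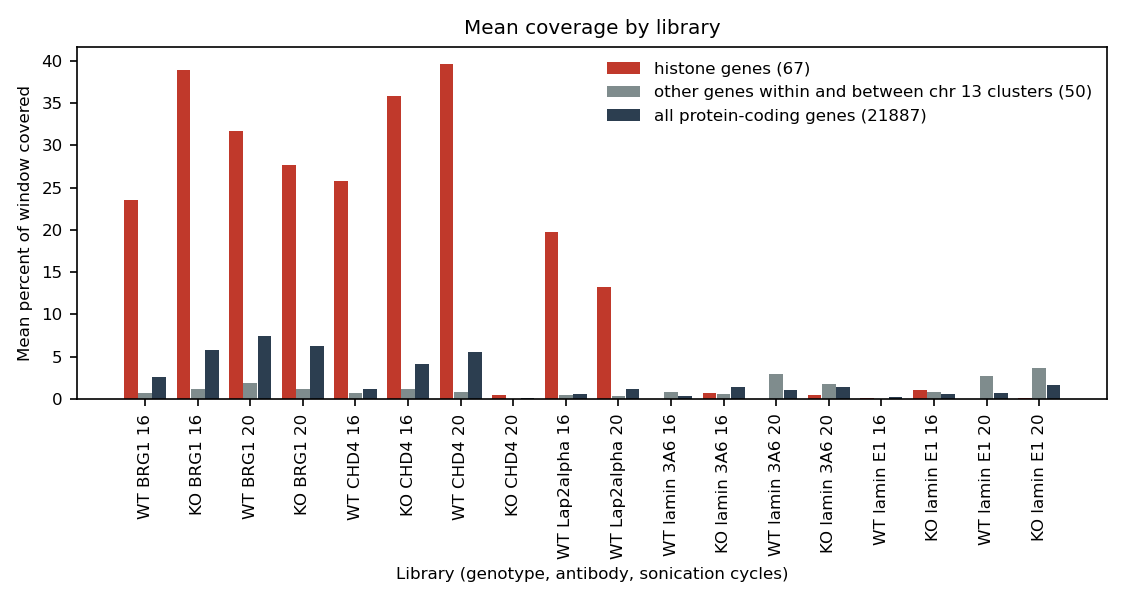
Mean percent of the window (gene body plus 1 kb each side) covered in each of the 18 libraries, for the 67 histone genes, 50 other genes within and between the chromosome 13 clusters and all 21887 protein-coding genes. Histone genes lie above both other groups in each WT list of BRG1, CHD4 and Lap2alpha, for example 19.8% against 0.469% and 0.626% for Lap2alpha at 16 cycles, and the KO CHD4 list at 20 cycles is near 0 in all groups. Window lengths differ between the groups: the median body was 496 bp for histone genes and 17169 bp over all genes.

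Lap2alpha, the protein absent from the KO cells, had a region in both WT lists at 42 of 67 members (62.7%), where 24% of all genes had one. Among genes with bodies up to 1500 bp the count was 39 of 60 members against 2.93% of all. Within 1 kb of the start it was 38 of 62 members (61.3%) against 1.53% of genes, so members made up 38 of the 267 genes that met this rule. Coverage of 10% or more in both lists was found at 34 members and at 102 genes in all (0.466%). Ranked by the lower of the 2 values, 6 of the first 20 genes, 19 of the first 50 and 32 of the first 100 were members. By type, 5 of 10 H1, 11 of 17 H2A, 10 of 16 H2B, 9 of 12 H3 and 7 of 12 H4 genes had a Lap2alpha region in both lists.

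The members with the highest lower value were 2 linker histone genes and 2 H2B genes of the second chromosome 13 cluster. H1f2 (chr13:23738807-23739531) was covered by Lap2alpha over 49.9% of its window at 16 cycles and 35.7% at 20 cycles. At 16 cycles a single region, chr13:23738375-23739735, took in the whole gene body. H1f4 (chr13:23621777-23622558), another somatic linker histone gene, had 28.8% and 39.5%. H2bc3 (chr13:23746734-23747223) had 46.3% and 27.3%, and H2bc8 (chr13:23571400-23571863) had 65.9% and 26.1%. The 16-cycle value was the higher in 3 of these 4. On chromosome 3 the order was opposite for H2ac20, with 10.0% at 16 cycles and 60.4% at 20 cycles, and for its neighbour H2ac21, with 10.0% and 70.9%. Their windows overlap, and at 20 cycles both values come from the same 1750 bp region, chr3:96219153-96220902.

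**Figure D2:**
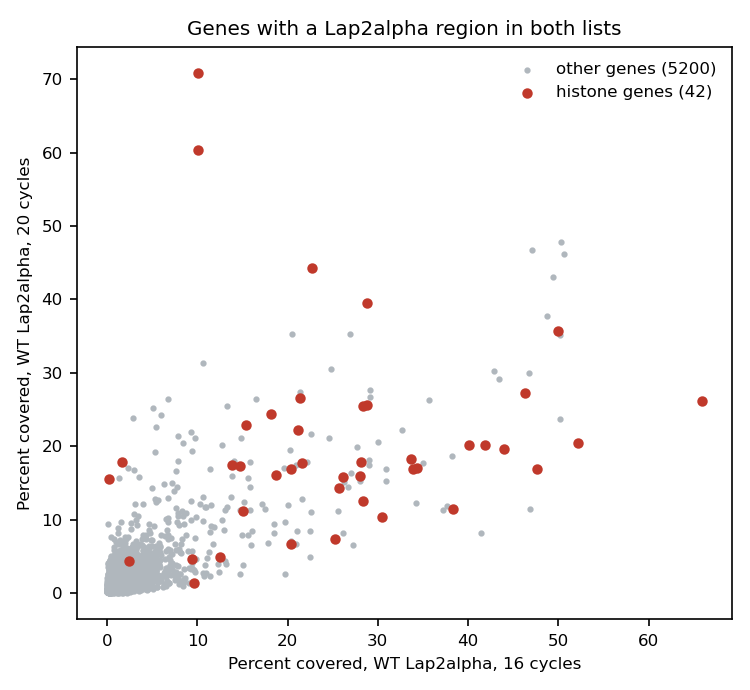
Percent of the window covered by Lap2alpha in the WT list at 16 cycles (x axis) and at 20 cycles (y axis), for the 5242 genes with a region in both. The 42 histone genes (red) extend to 65.9% on the x axis and 70.9% on the y axis, and most other genes (grey) lie near the origin.

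BRG1 had a region in all 4 lists, WT and KO, at 51 of 67 members (76.1%) and at 48.8% of all genes. With bodies up to 1500 bp the shares were 45 of 60 members and 6.32% of all genes. Within 1 kb of the start they were 44 of 62 members (71.0%) and 33.2%. All 12 H3 genes and all 10 chromosome 3 members were among the 51, with 10 of 12 H4, 12 of 16 H2B, 11 of 17 H2A and 6 of 10 H1 genes. CHD4 had a region in both WT lists and the KO list at 16 cycles at 55 of 67 members (82.1%), against 32.3% of all genes, and within 1 kb of the start at 50 of 62 members, against 13.8%. BRG1, CHD4 and Lap2alpha regions were present in all 6 WT lists at 39 members (58.2%), against 16.6% of all genes. Within 1 kb of the start that was 35 of 62 members against 0.949%.

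Where Lap2alpha regions lay in member windows, BRG1 and CHD4 regions mostly lay on the same bases. At 16 cycles 66.4% of the Lap2alpha bases in member windows were also in a BRG1 region and 74.8% in a CHD4 region. The 20-cycle lists gave 84.0% and 89.3%. Over all gene windows the BRG1 shares were 15.9% and 23.2%, and the CHD4 shares 14.3% and 16.5%. BRG1 regions took up 18% and 24.6% of the joined member windows at 16 and 20 cycles, and CHD4 regions 18.4% and 28.8%. Seen from BRG1, 49.9% and 34.1% of its bases at members were in a Lap2alpha region, against 4.99% and 4.96% over all genes. Lap2alpha regions took up 13.6% and 9.97% of the joined member windows. Each protein covered less of the windows over all genes, with WT BRG1 means of 2.55% and 7.49%. The part of region density in these contrasts was not tested.

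Coverage was not centred on the start of the gene. Over the 63 listed starts, the share covered by WT Lap2alpha was 27.0% and 22.2% at the start and reached 41.3% and 28.6% at 600 bp after it, at 16 and 20 cycles. BRG1 reached 44.4% at 650 bp and 58.7% at 550 bp, from 27.0% and 38.1% at the start, where all genes had 16.3% and 38.0%. At the start itself the histone genes therefore had no more BRG1 than other genes in the 20-cycle list. CHD4 reached 46.0% at 550 bp and 63.5% at 650 bp. These distances lie near or past the end of a member of median length. In the 57 members with bodies up to 2 kb and a listed strand, WT Lap2alpha covered 18.1%, 31.6% and 20.3% of the 1 kb before the start, the body and the 1 kb after the end at 16 cycles. At 20 cycles the same stretches had 9.71%, 20.3% and 16.1%. The body was the most covered of the 3 for WT BRG1 as well, at 37.1% and 42.7%. Many members have another histone gene within 1 kb, whose regions enter these flanks.

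**Figure D3:**
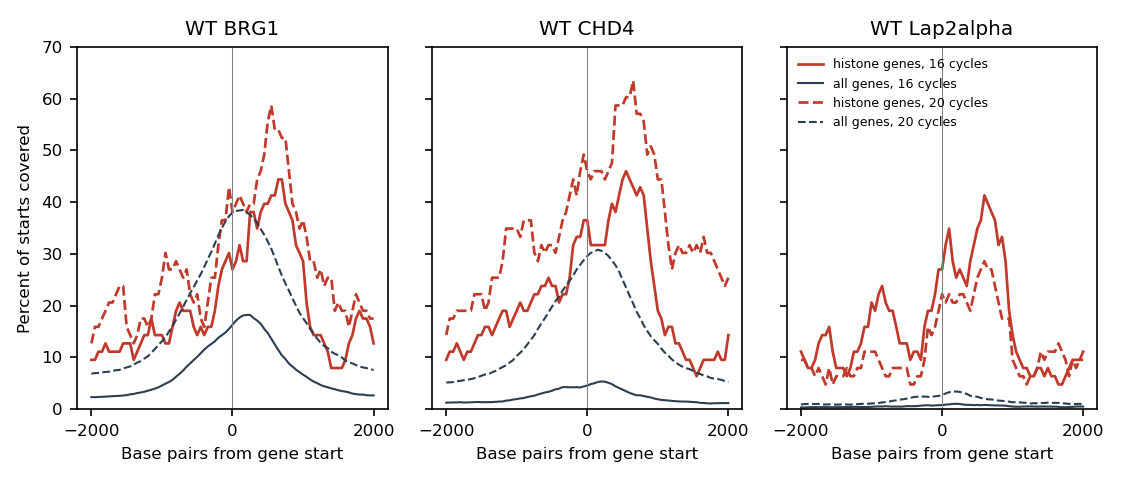
Share of gene starts (y axis, percent) covered by WT regions at each distance from the start (x axis, base pairs, positive in the direction of transcription), for 63 histone gene starts (red) and 21263 starts of all genes (dark). Solid lines are 16 cycles and dashed lines 20 cycles; the histone lines are highest 550 to 650 bp after the start, with Lap2alpha at 41.3% and 28.6%.

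In the 300 bp promoter window alone, Lap2alpha had a region at 24 of 63 member promoters (38.1%) at 16 cycles, against 1.54% of all promoters, and at 16 of 63 (25.4%) at 20 cycles, against 5.39%. BRG1 differed less from other promoters there: it had a region at 31.7% of member promoters in WT at 16 cycles (22.3% of all), 57.1% in KO at 16 cycles (41.5%), 46.0% in WT at 20 cycles (45.4%) and 36.5% in KO at 20 cycles (40.5%). The short stretches between head-to-head H2A and H2B genes were covered less regularly. Of 9 such pairs, 163 to 280 bp apart, 1 had a Lap2alpha region between the genes at 16 cycles and 0 had at 20 cycles. That pair was H2ac8 and H2bc8, whose 179 bp gap was covered over 89.9% by Lap2alpha at 16 cycles and over 92.7% to 100.0% in all 4 BRG1 lists. The gaps of H2ac11 with H2bc11 and of H2ac12 with H2bc12 were at 0 in every list, although the windows of all 4 genes had Lap2alpha and CHD4 regions in both WT lists. No gap had a lamin A/C region.

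**Figure D4:**
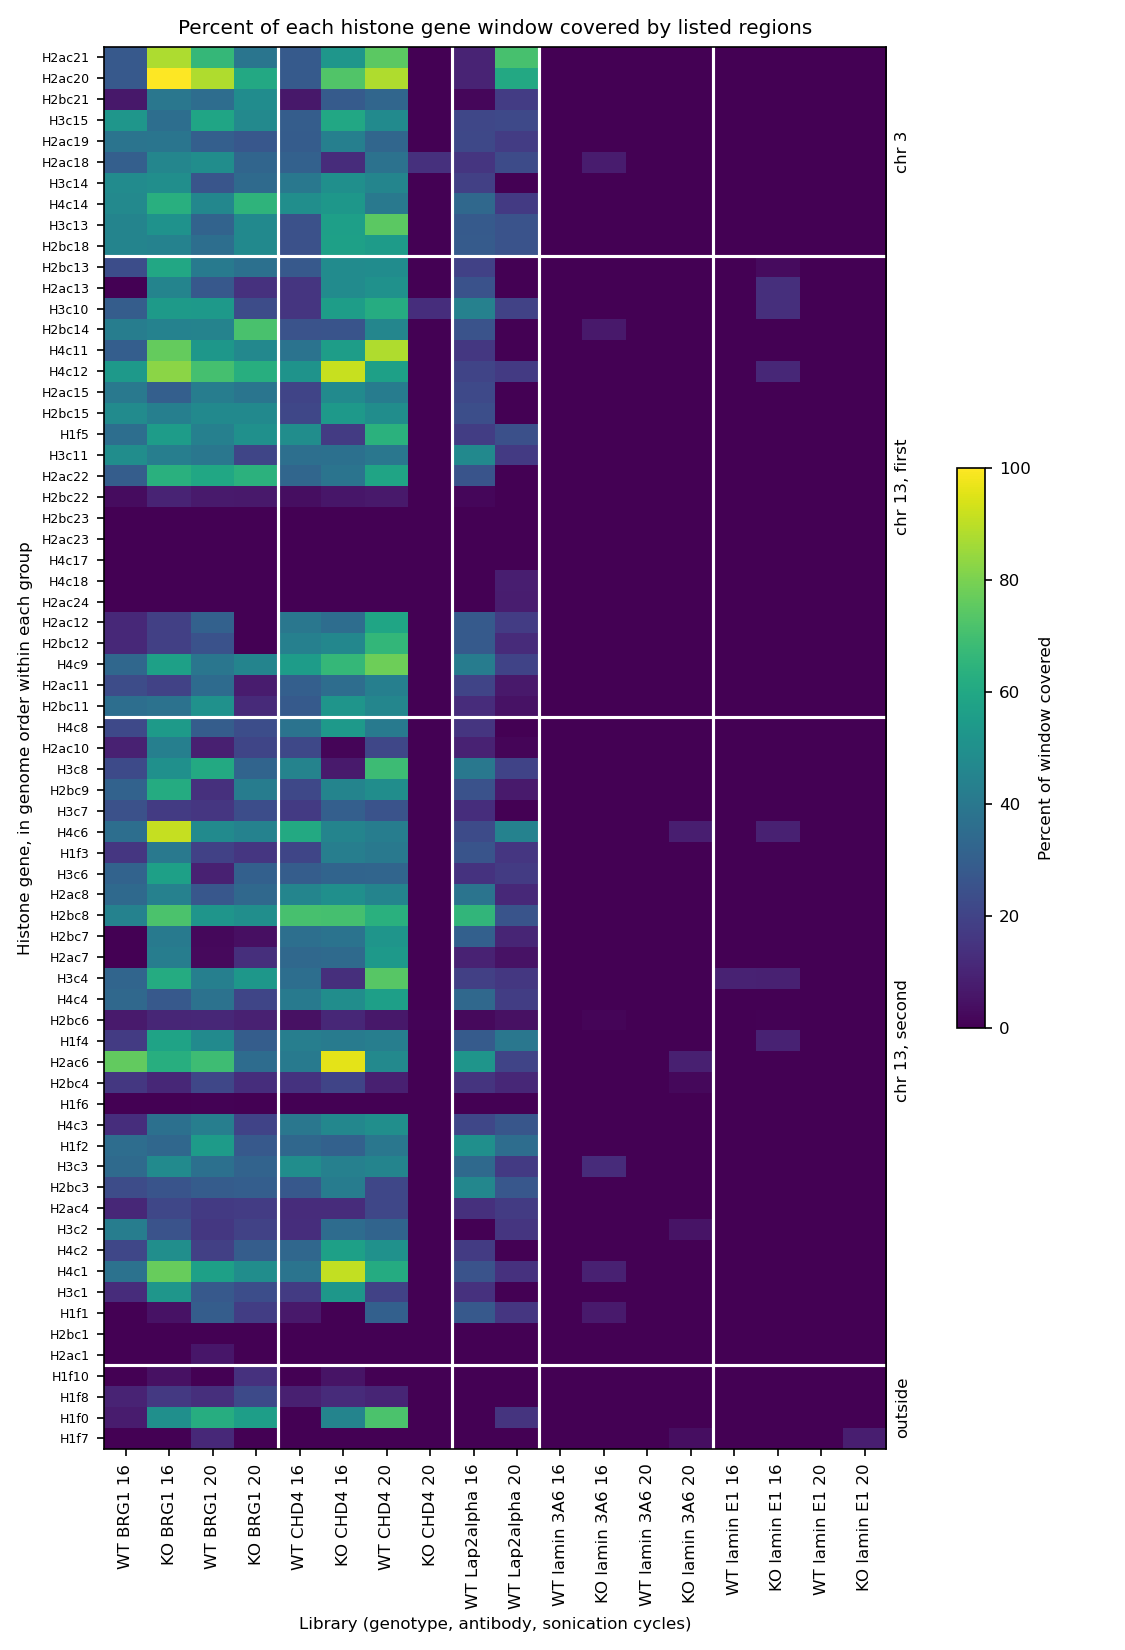
Percent of the window covered (colour, 0 to 100) for each of the 67 histone genes (rows, in genome order within the chromosome 3 cluster, the first and second chromosome 13 clusters and the genes outside) in the 18 libraries (columns). BRG1, CHD4 and Lap2alpha columns are bright for most rows, lamin A/C columns are dark in nearly all rows, and a dark band in the first chromosome 13 cluster marks the 5 neighbouring genes without BRG1 or CHD4 regions.

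Coverage differed between the clusters. The 10 chromosome 3 genes had a mean BRG1 coverage of 36.9% and 46.9% in the WT lists at 16 and 20 cycles. The first chromosome 13 cluster had 22.8% and 32.3%, and the second had 22.2% and 27.6%. These means include 5 of 22 genes without any BRG1 region in the first cluster and 1 of 31 in the second, with 0 of 10 on chromosome 3. The second cluster also holds the testis genes H1f6 and H2ac1, which had almost no BRG1. Cluster means without these genes are not given here, so the differences may depend on them. For Lap2alpha the order depended on the list: chromosome 3 had 19.0% and 28.0%, the first chromosome 13 cluster 19.2% and 7.10%, and the second 23.02% and 14.1%. H2ac20 carried the highest BRG1 mean of the H2A genes, the WT values being 28.0% (16 cycles) and 88.1% (20 cycles) and the KO values 100.0% and 60.3%.

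By histone type and over all members, H3 and H4 genes had the highest WT BRG1 means, 35.4% and 27.4% at 16 cycles and 35.0% and 36.9% at 20 cycles. H1 had 12.3% and 28.3%, H2A 21.1% and 32.9%, and H2B 21.2% and 26.1%. Genes without any BRG1 region enter these means at 0%: 2 H2A, 2 H2B and 2 H4 genes, and no H1 or H3 gene. Means of the H2A, H2B and H4 types without them are not given here, so the order may depend on them. The low H1 values include the germ-cell and replacement genes. The 5 somatic H1 genes of the clusters had 21.0% and 39.1%, at 20 cycles above the H3 and H4 means. Those 5 genes also had the highest Lap2alpha means of the types, 30.2% and 26.3%, while the 5 types as a whole ranged from 15.1% to 24.6% at 16 cycles and from 9.21% to 15.3% at 20 cycles. Among single genes, BRG1 in the WT 16, KO 16, WT 20 and KO 20 lists covered 36.1%, 55.2%, 43.7% and 50.04% of the H1f5 window. The same lists gave 44.3%, 71.7%, 52.3% and 49.6% for H2bc8, the highest mean of the H2B genes. H3c15, the highest of the H3 genes, had 52.4%, 35.9%, 58.9% and 47.3%, and H3c7, the lowest, 24.9%, 17.5%, 15.7% and 23.6%. H4c12, the highest of the H4 genes, had 54.0%, 82.5%, 70.7% and 62.8%.

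No BRG1 region lay at 6 members in any of the 4 lists (18.9% of all genes had none), and the same 6 had no CHD4 region. They were H2bc1 and 5 genes that follow each other in the first chromosome 13 cluster: H2bc23, H2ac23, H4c17, H4c18 and H2ac24 (chr13:21806412-21833475). H4c18 and H2ac24 had a Lap2alpha region at 20 cycles, covering 8.23% and 8.08% of their windows; it was the same 198 bp region, chr13:21832066-21832263, and the other 4 had no region in any of the 18 lists. All 5 neighbours had a promoter sharing a long identical run with another gene. The runs were 285 bases between H4c17 and H4c18, 200 between H2ac23 and H2ac24, and 300 between H2bc23 and H4bc24, a neighbouring gene outside the symbol rule that also had no region in any list. H3c14 and H3c15 shared 231 bases and H2ac18 and H2ac19 shared 219, and these 4 chromosome 3 genes had BRG1 regions in all 4 lists. No other listed member promoter shared 100 bases with another gene. The part of read placement in the empty stretch was not tested.

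The testis genes were also members with few regions, while the oocyte gene H1f8 had BRG1 and CHD4. H1f6 (chr13:23695811-23696545) had no region except BRG1 in WT at 20 cycles, over 0.402% of its window. H2ac1 had BRG1 at 6.22% in the same list and nothing else. H1f7 had BRG1 at 11.6% in that list. H1f8 had BRG1 in all 4 lists, at 9.92%, 16.5%, 13.6% and 22.6% for WT 16, KO 16, WT 20 and KO 20, and no Lap2alpha. Its CHD4 coverage was 8.83%, 12.3%, 10.3% and 0.0% in the same order. None of the 5 germ-cell genes had a Lap2alpha region. Of the replacement genes, H1f0 had BRG1 at 7.59%, 49.8%, 62.2% and 56.2% and Lap2alpha at 15.1% at 20 cycles, and H1f10 had BRG1 in the KO lists only, at 4.51% and 14.3%.

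Between the outermost chromosome 13 members lay 51 other protein-coding genes, and none lay inside the chromosome 3 interval. H4bc24 was left out because its window overlaps member windows. Of the remaining 50 neighbours, 36 were vomeronasal receptor genes and 14 were others; 41, with all the receptor genes among them, lay in the gap between the clusters and 9 inside a cluster. BRG1 covered 0.763%, 1.19%, 1.93% and 1.19% of their windows in the WT 16, KO 16, WT 20 and KO 20 lists. The 53 chromosome 13 members exceeded them by 21.7, 36.2, 27.6 and 23.5 percentage points, a mean of 27.3 ± 6.45 (SD over 4 libraries). The 14 neighbours that are not receptor genes had more BRG1, 2.72%, 4.24%, 6.22% and 3.76%, where all genes had 2.55%, 5.82%, 7.49% and 6.27%, and the members exceeded them by 24.3 ± 6.08. Against the 9 neighbours inside a cluster the excess was 24.7 ± 6.51. Bodies of these 9 were 7554 to 28107 bp, against a member median of 496 bp, so a region of given width takes a smaller percent of their windows. By presence, 5 of the 50 neighbours had a BRG1 region in all 4 lists, against 51 of all 67 members and 48.8% of all genes. Lap2alpha covered 0.469% and 0.291% of the neighbours' windows, against 21.4% and 11.22% for the members, and none of the 50 had it in both lists.

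Lamin A/C at the histone genes was sparse in WT cells, and in KO cells the distance from other genes depended on the window. In WT cells 1 of 67 members (1.49%) had a region in any of the 4 lists, against 22.7% of all genes. The same was true of 20 of the 50 neighbours, all in the gap between the clusters, and of 0 of the 9 inside a cluster. Within 1 kb of the start the shares were 1 of 62 and 9.55%. In KO cells 17 members (25.4%) had one in any of the 4 lists, against 68.3% of all genes and 33 of the 50 neighbours, and within 1 kb of the start 13 of 62 (21.0%) against 26.8%. Since windows overlap, these were 17 distinct regions in the KO lists and 1 in the WT lists. Regions in 2 or more of the 8 lists were found at 4 members (5.97%), against 47.1% of all genes. Among bodies up to 1500 bp, 1 of 60 members had a region in any WT list, against 37.1% of such genes. For any KO list it was 15 of 60 members (25.0%) against 53.5%.

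The WT region was that of H3c4, an H3 gene of the second chromosome 13 cluster (chr13:23575763-23576266). In the E1 lists at 16 cycles it covered 9.74% of the WT window (chr13:23576332-23576575), and a region at nearly the same place covered 9.11% in KO (chr13:23576340-23576567), both outside the gene body. H4c6, an H4 gene (chr13:23551286-23551668), had no lamin A/C in WT and 8.31% with 3A6 at 20 cycles and 9.15% with E1 at 16 cycles in KO. H2bc6, whose annotated body reaches 37455 bp, had 1.23% with 3A6 and 0.679% with E1, both in KO at 16 cycles. H1f7 had 3.55% with 3A6 and 8.48% with E1, both in KO at 20 cycles. The KO E1 list at 16 cycles had a region of 332 bp, chr13:21717110-21717441, that entered the windows of H2bc13 (2.99%), H2ac13 (13.6%) and H3c10 (13.3%) at once.

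Mean lamin A/C coverage of members was 0.0%, 0.0%, 0.145% and 0.0% in WT and 0.663%, 0.421%, 1.04% and 0.127% in KO for 3A6 at 16 and 20 cycles and E1 at 16 and 20 cycles. Over all genes the same lists had 0.369%, 1.06%, 0.174% and 0.764% in WT and 1.41%, 1.36%, 0.541% and 1.59% in KO. Members were thus below all genes in 7 of the 8 lists and above them in the KO E1 list at 16 cycles, where 1 kb to each side of the start also had more coverage at members (1.36% against 0.482%). In the E1 pair at 20 cycles H1f7 was the only member with a region. KO exceeded WT in all 4 pairs, by 0.526 ± 0.329 percentage points (SD over 4 pairs, which differ in antibody and shearing and are not replicates). Over all genes the difference was 0.633 ± 0.358. The KO list also held more regions than the WT list in each pair. For 3A6 these were 188132 against 86033 at 16 cycles and 226877 against 182893 at 20 cycles. For E1 they were 107717 against 43798 at 16 cycles and 233769 against 144489 at 20 cycles. Without the germ-cell and replacement genes and those outside the clusters, the members had more in KO in 3 of the 4 pairs and no region in either genotype in the E1 pair at 20 cycles. No member had more lamin A/C in KO in all 4 pairs, where 7.88% of genes did, and none had less in all 4 pairs, where 0.562% did. Without a flank the member difference was 0.179, higher in KO in 3 of the 4 pairs.

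BRG1 and CHD4 coverage of the histone genes was higher in KO at 16 cycles and lower in KO at 20 cycles. For BRG1 the member mean went from 23.5% in WT to 38.9% in KO at 16 cycles, a difference of 15.4 percentage points, and from 31.7% to 27.7% at 20 cycles, a difference of -4.05. Over all genes BRG1 moved the same way, by 3.27 and -1.23. Within 1 kb of the start, members went from 27.3% to 43.3% and all genes from 11.8% to 24.7% at 16 cycles. At 20 cycles members went from 35.5% to 29.9% and all genes from 27.8% to 23.8%. In these equal windows the shifts of members and of all genes were closer in size. At 16 cycles 46 of 67 members had more BRG1 in KO (61.9% of all genes did), and at 20 cycles 37 members had less (52.3% of all genes did). For CHD4 the mean went from 25.8% to 35.9% at 16 cycles, with more in KO at 45 members (58.3% of all genes). At 20 cycles it went from 39.7% to 0.415%, with less in KO at 57 members (68% of all genes). At 16 cycles the CHD4 lists held 49441 regions in WT and 88788 in KO. In each BRG1 and CHD4 pair the list with more regions had the higher member mean, and the part of list size was not tested. The KO CHD4 list at 20 cycles held 7283 regions against 109769 in its WT pair, and 3 members had a region in it: H3c10, H2bc6 and H2ac18. With equal numbers of the widest regions in each pair, the CHD4 difference was 8.16 at 16 cycles and -14.5 at 20 cycles, and the mean over both pairs went from -14.6 to -3.15. This step equalised numbers and not covered bases. At 20 cycles the widest CHD4 region was 4942 bp in WT and 707 bp in KO, so WT kept wider regions.

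**Figure D5:**
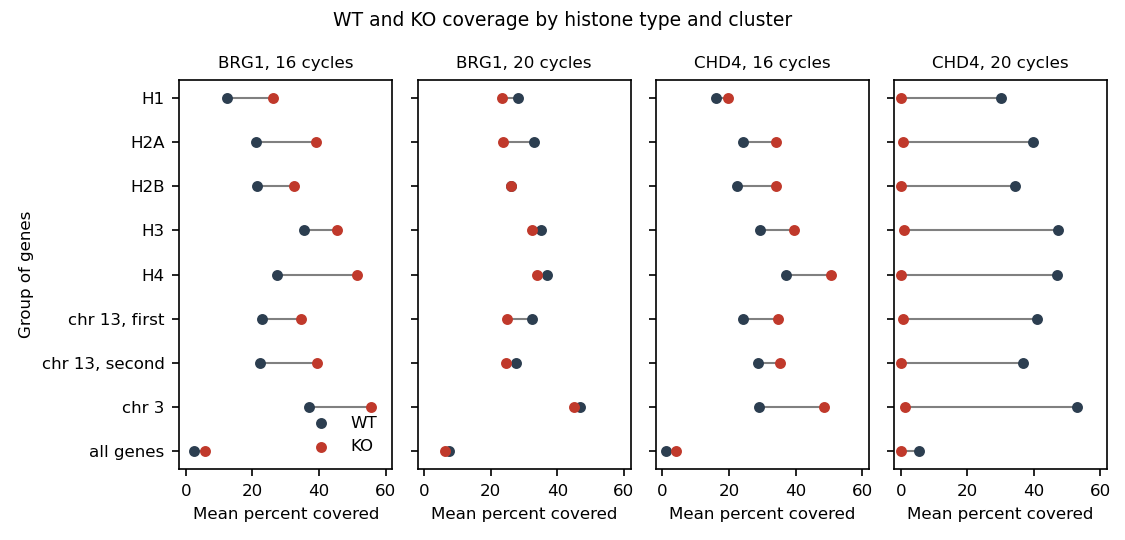
Mean percent of the window covered (x axis) in WT (dark points) and KO (red points) for each histone type, each cluster and all protein-coding genes (y axis), for BRG1 and CHD4 at 16 and 20 cycles. At 16 cycles KO lies to the right of WT in every group, while at 20 cycles the BRG1 difference reaches -9.10 in H2A and CHD4 in KO is near 0.

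At 16 cycles the BRG1 difference was 23.9 percentage points for H4 genes and 10.0 for H3 genes, with 14.0 for H1. At 20 cycles the same types had -3.01, -2.65 and -4.86. The chromosome 3 cluster had 18.6 and -1.99, the first chromosome 13 cluster 11.7 and -7.41, and the second 17.2 and -3.03. CHD4 at 16 cycles was higher in KO by 19.4 on chromosome 3, 10.3 in the first and 6.51 in the second chromosome 13 cluster. H2B genes did not differ in BRG1 at 20 cycles beyond 0.0156 percentage points, and H2A genes had -9.10. All 5 types and all 3 clusters had higher means in KO at 16 cycles for both proteins. The 5 somatic H1 genes taken alone were an exception for CHD4, with 30.6% in WT and 26.6% in KO.

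BRG1 coverage was higher in KO in both pairs at 20 members (29.9%), against 22.6% of all genes, and lower in both at 8 members (11.9%), against 5.93%. Being lower requires a region in WT, which 79.1% of members and 51.1% of all genes had at 16 cycles. Among the 20, the largest mean differences were at H2bc9, H2ac7, H3c6 and H2ac10, all in the second chromosome 13 cluster. BRG1 at the H2B gene H2bc9 went from 31.6% to 61.5% at 16 cycles and from 14.0% to 41.9% at 20 cycles. At the H2A gene H2ac7 it went from 0.0% to 42.4% and from 2.41% to 13.3%. At H3c6 it went from 31.7% to 56.9% and from 9.0% to 30.7%, and at H2ac10 from 8.99% to 43.1% and from 8.75% to 20.8%. In the gene body alone H2bc9 differed by 82.4 and -0.383 in the 2 pairs.

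Among the 8 lower in both, the largest mean differences were at H2ac6, H2ac11, H1f2 and H3c15. BRG1 at H2ac6 went from 76.1% to 62.8% at 16 cycles and from 68.8% to 35.3% at 20 cycles. At H2ac11 it went from 23.3% to 19.7% and from 35.0% to 7.65%. At H1f2, the linker gene with much Lap2alpha, it went from 35.7% to 33.2% and from 54.9% to 27.9%. At H3c15 it went from 52.4% to 35.9% and from 58.9% to 47.3%. With 5 kb on each side in place of 1 kb, the mean differences of H2ac11 and H1f2 were 5.53 and 3.82, so their direction depended on the window. H3c15 then had -9.24 in 1 pair and 7.11 in the other, and H2ac10 had 20.5 and -3.30, so neither moved one way in both.

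CHD4 was higher in KO in both pairs at 0 members (0.475% of all genes) and lower in both at 13 members (19.4%), against 6.24% of all genes. A gene can be lower only where WT has a region, and at 16 cycles 83.6% of members and 35.3% of all genes had one. A smaller share of all genes than of members could therefore meet this rule. All 57 members with CHD4 at 20 cycles in WT were lower in KO there, so these 13 are those lower at 16 cycles. The H3 gene H3c8 went from 44.5% to 7.14% in the 16-cycle pair and from 68.5% to 0.0% in the other. H3c4 had 36.1% and 13.4%, then 74.1% and 0.0%, and H1f5 had 49.2% and 17.3%, then 64.0% and 0.0%. H2bc8 was nearly the same in the 16-cycle pair, 70.9% and 70.3%, and went from 63.3% to 0.0% in the other.

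Genes that serve histone supply were looked at alongside: 31 genes for transcription, RNA processing and chaperoning of histones. BRG1 had a region in all 4 lists at 22 of them (48.8% of all genes) and Lap2alpha in both lists at 10 (24% of all genes). Lamin A/C had a region in any WT list at 1 (22.7% of all genes) and in any KO list at 24 (68.3% of all genes), and none differed one way in all 4 lamin pairs. Npat, the S-phase coactivator of histone genes, had Lap2alpha at 0.643% and 1.71%, and lamin A/C in KO with 3A6 only, at 2.09% and 0.486%. Slbp, which binds the stem-loop, had Lap2alpha at 3.29% at 16 cycles and lamin A/C at 1.69% with 3A6 in KO at 16 cycles. Hinfp, the H4 promoter factor, had no lamin A/C. Casp8ap2, a histone locus body protein, had lamin A/C at 1.89% and 0.497% with 3A6 in KO, and Nasp, a histone chaperone, at 3.44% and 1.25%. Pou2f1, the octamer factor, had lamin A/C regions in 3 lists, all KO, and Atrx, a chromatin remodeller, in 5.

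Histone genes just outside the symbol rule included the 2 on chromosome 11 and H4f16 on chromosome 6. H2aw (older name Hist3h2a) had BRG1 at 17.8%, 98.3%, 60.6% and 44.3% in the WT 16, KO 16, WT 20 and KO 20 lists and Lap2alpha at 21.0% and 17.5%. H2bu2 (Hist3h2ba), beside it, had no BRG1, CHD4 or Lap2alpha region and lamin A/C at 9.26% with 3A6 in KO at 16 cycles. H4f16 (Hist4h4) had BRG1 at 38.3%, 69.6%, 28.3% and 46.3%, and lamin A/C in KO with 3A6 at 9.84% and 13.9%. Of 10 replacement histone genes, 9 had BRG1 in all 4 lists (48.8% of all genes) and 2 had Lap2alpha in both (24% of all genes).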

How the data were processed

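The deposited files were 18 lists of genomic regions, given by the authors as chromosome, start and end on GRCm38 with no score, so they hold other values than counts. The submitters' processing notes name MACS2 2.1.4 and HOMER 4.11.1, with bedtools, deepTools and SAMtools; the role of each, the calling settings and the control were not given in the sources used here. Read depth is unknown, and the 4 inputs were not analysed here. Zero-width intervals (1 to 1201 a list) and mitochondrial intervals were left out, and overlapping intervals, found in 7 lists, were merged. Percent covered was computed from the deposited coordinates over each RefSeq (GRCm38.p6) gene body plus 1 kb each side, with a region counted as present from 1 bp of overlap, in Python 3.11.15 with NumPy 2.4.6, pandas 2.3.3 and Matplotlib 3.10.9. The scripts were tested on simulated data. Each combination of genotype, antibody and cycles was 1 library, so values are compared without a test, and an SD over pairs is not replicate error. Members and gene lists were chosen with earlier results of these data known. Genes named are the highest and lowest for BRG1 of each type, those with lamin A/C in most lists, the 4 with the highest lower Lap2alpha value, the 4 largest differences of one sign in both pairs for BRG1 and CHD4, the members outside the clusters or without BRG1, and set histone supply genes; others named were chosen after their values were seen. Neighbours are other genes between the outermost chromosome 13 members whose windows overlap no member window. Alternatives changed the flank, joined or dropped regions, equalised region numbers, counted each base once, and left out genes, antibodies or pairs.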

Additional observations from a re-analysis of the deposited data

Results flagged for a closer look

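BRG1 coverage of the histone genes differed between KO and WT in opposite directions at the 2 sonication lengths, by 15.4 percentage points at 16 cycles and by -4.05 at 20 cycles. CHD4 did likewise, by 10.1 at 16 cycles and by -39.2 at 20 cycles, where the KO list held 7283 regions. With equal numbers of the widest regions in each pair the CHD4 values were 8.16 and -14.5. That step did not equalise the bases covered, and at 20 cycles WT kept wider regions than KO. BRG1 over all genes moved the same way, within 1 kb of the start from 11.8% to 24.7% at 16 cycles and from 27.8% to 23.8% at 20 cycles. In each BRG1 and CHD4 pair the list with more regions had the higher member mean, and the part of list size was not tested. Each value is 1 library against 1 library, and the difference between sonication lengths was not tested.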

How the results depend on the processing

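WT and KO were paired by antibody and cycles, and no fit with a replicate block was made because the labels carry no replicate numbers and each group is 1 library. Of 193 alternative values, 152 were labelled the same, 37 moved and 4 reversed. A mean was the same when it kept its sign and shifted by less than the SD over its libraries or pairs. A count was the same when equal or within a set ratio. The BRG1 and CHD4 pairs went opposite ways, with SDs of 13.7 and 34.9 percentage points over members. Few values of the same sign could be labelled moved there, so the tally says little about them. The KO minus WT difference in BRG1 was -4.05 with 20 cycles alone (both pairs 5.67), and in CHD4 10.1 with 16 cycles alone (both pairs -14.6). With 5 kb each side the BRG1 differences of H2ac11 and H1f2 were 5.53 and 3.82, against -15.5 and -14.7. The lamin A/C difference was 0.179 without a flank (0.526 with 1 kb). WT Lap2alpha coverage (16.5) was 24.1 without a flank, 8.69 with 5 kb, 21.6 with regions joined and 11.8 with each base counted once. BRG1 above the neighbours (27.3) was 38.2, 17.1, 35.2 and 19.2 in the same order. Members with more lamin A/C in KO in all pairs numbered 1 with 16 cycles only and 1 with 20 cycles only, against 0. The window of 1 kb each side of the start, leaving out the 5 genes of the empty stretch, and the 2 other sets of neighbours were chosen after seeing the data. Without read depth, a gene without a region cannot be told from a signal under the caller's threshold.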
